A study of Mus musculus with 7 samples.

Results

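Neuronal activity-regulated genes are transcribed in neurons when synaptic input raises calcium inside the cell. The early members encode mostly transcription factors and are switched on without new protein synthesis through factors such as CREB, SRF and MEF2. The late members encode secreted and synaptic proteins that follow, and both sets are used in the hippocampus and cortex as a record of recent firing. Many early members also respond to growth factors and stress in glia and in vessels. The set described here held 31 genes of the 32285 in the deposited matrices, chosen by symbol from a list of 22 early and 9 late members, and each symbol matched a single gene.

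The study profiled single nuclei from brains of 5xFAD +/- mice, a transgenic model of amyloid deposition whose transgenes are driven by the neuronal Thy1 promoter, so every library came from amyloid-forming brain. The mice were injected behind the eye at 4 months of age with an adeno-associated virus (AAV) and their brains were collected fresh-frozen at 6 months. The Control AAV group had 3 libraries, a male and a female of batch 1 and a male of batch 2, and the ANGPT2 AAV group, which received the virus coding for angiopoietin-2, had 4, a male and a female of each batch. The tissue was labelled as subcortex, thalamus and hippocampus, taken as curls of cryosections, and no wild-type mice were included. The labels do not say that each library came from 1 mouse, so the p-values below measure the spread between these libraries, which may be partly technical.

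The libraries held 6311 to 9630 barcodes and 25466033 to 100529717 unique molecular identifiers (UMIs), with a median of 2262 to 8278 UMIs per barcode, and all 3 libraries of batch 2 were shallower than the 4 of batch 1. Between 427 and 652 barcodes of a library (6.64% to 6.79%) also occurred in another library. After filters and removal of doublets 54230 nuclei were kept. Clusters were named from marker genes with the 31 members left out of the clustering, so each class is "like" the named type. Neuron classes were dentate granule (2285 nuclei), hippocampal pyramidal (1528), thalamic excitatory (1952), other excitatory (12217), medium spiny (4429) and other inhibitory neurons (2632). Medium spiny neurons, a type of the striatum, had 6 to 1729 nuclei a library. Levels below are CPM, the UMIs of a gene per 1000000 UMIs of a class summed over its nuclei in 1 library, scaled with TMM factors. Values are given in a fixed order, for the control libraries male of batch 1, female of batch 1 and male of batch 2, and for the ANGPT2 libraries male and female of batch 1, then male and female of batch 2. In such sums more nuclei of a type and more RNA per nucleus cannot be told apart, and the class makeup differed between libraries, with dentate granule neurons from 92 to 682 nuclei.

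One control library stood apart. Over all neurons the control female of batch 1 held the highest level of 30 of 31 members, against 19.5% of the 18624 genes tested, and the exception was Pcsk1, the prohormone convertase that cuts neuropeptide precursors. It was more than 2-fold above the mean of the other 6 libraries (at a pseudocount of 1) for 28 of 31 members, against 1.56% of genes. All 22 early members passed that fold, and 6 of 9 late ones. In whole libraries 30 of 31 were highest in it (18.4% of genes) and 25 passed that fold (1.12%). Over all neurons the median log2 difference from the other libraries was 1.93 over the members and -0.02 over all genes. This library was named as high when the genes were chosen, so these values are a description, with no test. It held 70819685 UMIs in all, and its median of 8278 UMIs per barcode was the highest of the 7 libraries. Mitochondrial genes took 0.149% of its UMIs, within the 0.0807% to 0.292% of the others.

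**Figure D1:**
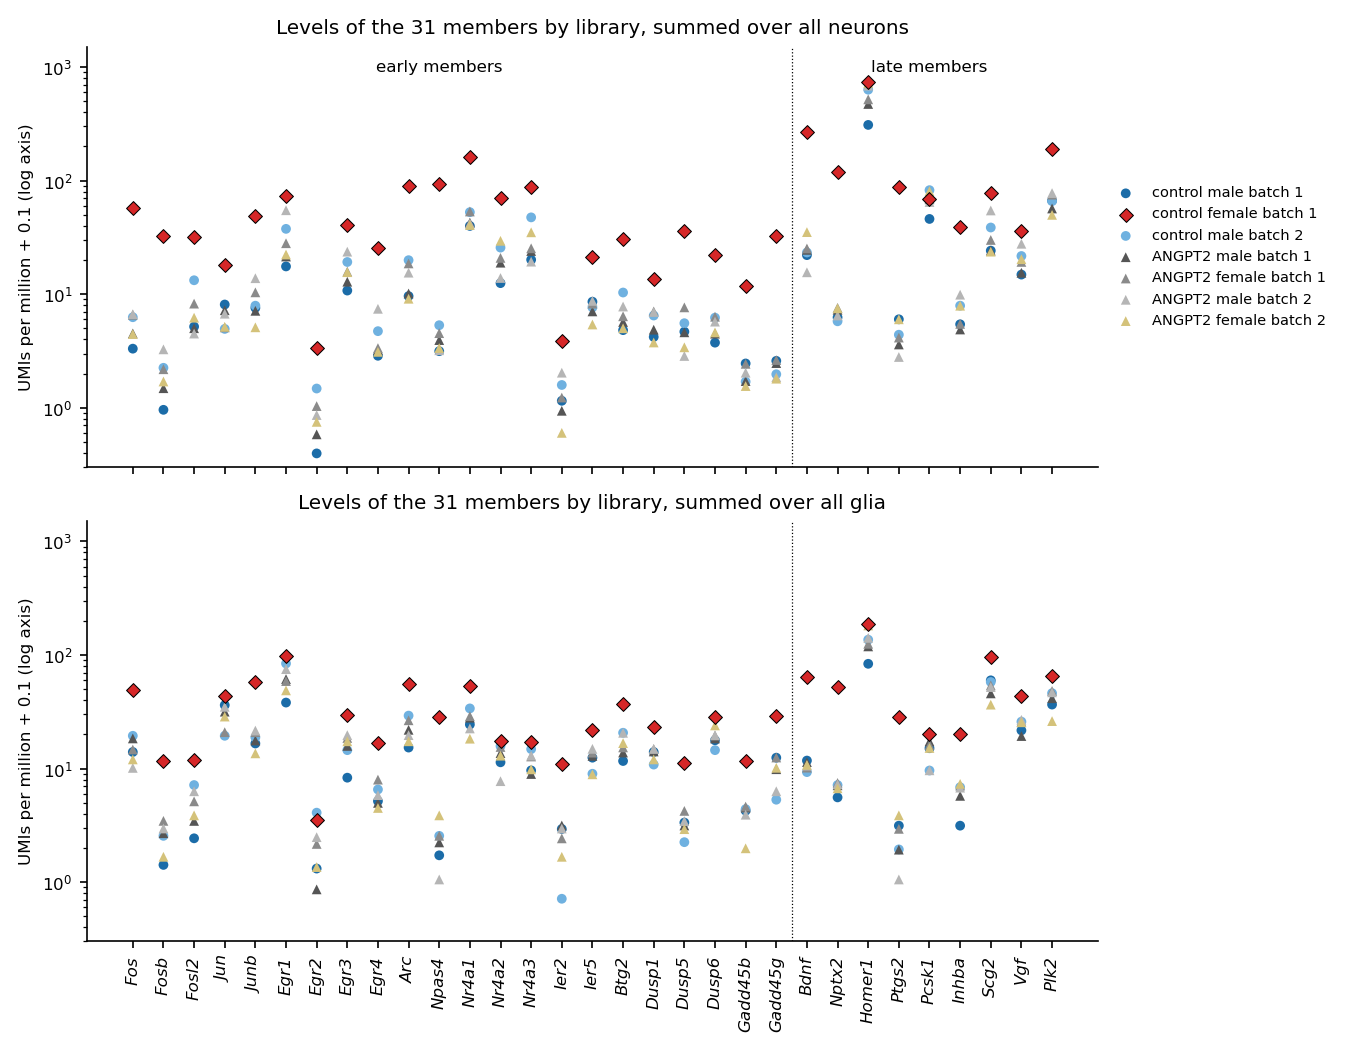
Levels of the 31 members in each library (CPM + 0.1, log axis), summed over all neurons above and over all glia below, with early members left of the dotted line and late members right of it. The control female of batch 1 lies above the other 6 libraries for 30 of 31 members in neurons and for 30 of 31 in glia.

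Among the transcription factors, Npas4, which is induced by calcium entry and is largely restricted to neurons, had the largest fold in the neuron sums. Npas4 was at 3.05, 94.0 and 5.23 in controls and 3.84, 4.44, 3.11 and 3.25 under ANGPT2 AAV. The control female of batch 1 was thus 24.6-fold above the mean of the other libraries, which overlapped between the groups. Fos, the partner of Jun in the AP-1 factor, was at 3.21, 56.7 and 6.16 in controls and 4.41, 6.48, 6.56 and 4.35 under ANGPT2 AAV. The same library was the highest by 10.9-fold and the remaining controls lay among or below the ANGPT2 libraries. Fosb, a second Fos family member, was at 0.858, 32.1 and 2.15 in controls and 1.39, 2.08, 3.17 and 1.60 under ANGPT2 AAV, a 17.1-fold difference of the control female from the mean of the others.

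The Egr zinc finger factors and the Nr4a orphan nuclear receptors differed less over all neurons. Egr1 was at 17.4, 73.0 and 37.5 in controls and 21.3, 27.97, 54.7 and 22.2 under ANGPT2 AAV, 2.42-fold higher in the control female of batch 1, with the ANGPT2 male of batch 2 second. Nr4a1 was at 39.8, 162 and 52.6 in controls and 42.5, 53.3, 42.0 and 40.5 under ANGPT2 AAV, a 3.58-fold difference. Folds of the control female for the other members of both families ran from 2.50 for Egr3 to 6.30 for Egr4, with Egr2 at 4.36, Nr4a2 at 3.46 and Nr4a3 at 3.11. The other AP-1 members Fosl2, Jun and Junb stood at 4.54, 2.92 and 5.69-fold.

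Of the early members that are not transcription factors, Arc, a cytoskeletal protein that moves AMPA receptors off the synapse, was at 9.51, 89.9 and 19.8 in controls and 10.0, 18.5, 15.4 and 9.01 under ANGPT2 AAV. The control female of batch 1 was 6.55-fold above the mean of the others, with the control male of batch 2 next, just above the ANGPT2 female of batch 1. Gadd45g, a growth arrest and DNA damage-inducible protein, was at 2.49, 32.2 and 1.87 in controls and 2.37, 2.53, 1.76 and 1.70 under ANGPT2 AAV, a 15.2-fold difference, and its relative Gadd45b stood at 6.19-fold. The phosphatases that switch off MAP kinases stood at 2.46 (Dusp1), 7.59 (Dusp5) and 4.36-fold (Dusp6). The anti-proliferative factor Btg2 was 4.66-fold higher, Ier2 3.27-fold and Ier5 2.81-fold.

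Late members split into those far above the other libraries and those near them. Ptgs2, the inducible cyclooxygenase, was at 5.90, 88.3 and 4.29 in controls and 3.50, 4.05, 2.70 and 5.90 under ANGPT2 AAV, 20.1-fold higher in the control female of batch 1. Nptx2, a secreted pentraxin that clusters AMPA receptors, was at 6.14, 119 and 5.67 in controls and 7.18, 7.47, 6.39 and 7.41 under ANGPT2 AAV, and the other 6 libraries lay close together. Bdnf, the neurotrophin that acts through TrkB, was at 21.96, 269.8 and 23.2 in controls and 24.4, 25.1, 15.5 and 35.1 under ANGPT2 AAV, an 11.1-fold difference. Inhba, the activin A subunit, stood 5.72-fold above the others, Plk2, a kinase that weakens active synapses, 2.90-fold and the granin Scg2 2.38-fold. Homer1, a postsynaptic scaffold whose short form is the activity-induced one, was at 309, 731 and 631 in controls and 472, 519, 685 and 722 under ANGPT2 AAV. Its highest value, again in the control female, was close to that of the ANGPT2 female of batch 2, and the UMIs do not separate its short and long forms. Pcsk1 was at 45.8, 68.9 and 82.3 in controls and 69.6, 68.2, 64.7 and 80.6 under ANGPT2 AAV, with the highest value in the control male of batch 2, and the secreted peptide precursor Vgf stood 1.80-fold above the others.

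The contrast between libraries was largest in dentate granule neurons, the principal cells of the dentate gyrus. There all 31 members were highest in the control female of batch 1, against 23.7% of the 10007 genes tested, although only 17 members passed the filter on low counts. With the control female left out 15 members passed. The summed levels that follow hold all members, passed or not. The summed level of the 22 early members was 2707 CPM in the control female and 115 to 158 in the others, a 19.5-fold difference from their mean. The 9 late members summed to 3777, against 248 to 391. The clusters that held these nuclei differed as well, and 680 of the 689 nuclei of 1 dentate granule cluster came from this library. The members were left out of the clustering. Other activity-regulated genes were not barred from it, and Tll1 was among the leading genes of that cluster. Dentate granule values of the other libraries come almost all from the other dentate granule cluster, which held 2 nuclei of the control female. Of all genes tested in this type, 5.58% were more than 2-fold above the mean of the others, against 0.916% to 2.51% in the other neuron types. Markers of the dentate granule type summed to 4099 CPM in the control female and 5360 to 6905 in the other libraries, and none of the 7 was at 0.

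Single members of dentate granule neurons were as follows. Nr4a1 was at 3.87, 434 and 14.0 in controls and 4.69, 6.16, 10.55 and 4.64 under ANGPT2 AAV, 59.2-fold higher in the control female. Fos was at 2.19, 161 and 2.55 in controls and 2.86, 1.76, 0 and 2.65 under ANGPT2 AAV (907 UMIs against 32 over all other libraries). Npas4 had 643 UMIs in the control female and 12 over all other libraries. Arc was at 3.71, 281 and 12.8 in controls and 4.95, 7.04, 4.22 and 4.64 under ANGPT2 AAV. None of the other 6 libraries came near the control female for these 4 genes. Bdnf was at 46.5, 1278 and 47.2 in controls and 65.9, 37.8, 57.0 and 103 under ANGPT2 AAV, 21.5-fold higher. Homer1 was at 88.9, 1121 and 175 in controls and 116, 118, 124 and 193 under ANGPT2 AAV, 8.25-fold higher, whereas over all neurons it was 1.31-fold. Jun was the exception, at 38.2, 41.5 and 19.2 in controls and 32.8, 27.3, 40.1 and 16.6 under ANGPT2 AAV, so that the control female lay next to the ANGPT2 male of batch 2.

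Promoter sequence was examined for members that stood together in this library. Windows of 250 bases before RefSeq transcript starts (GRCm38.p6) were available for 25 members, and 17 of them held TGACG, the core of the CREB element, on either strand, against 17.8% of all 32851 windows. The full palindrome TGACGTCA lay in windows of 5 members (Btg2, Dusp1, Pcsk1, Scg2 and Plk2), against 1.55% of windows, and counts as 2 overlapping cores. The AP-1 site TGANTCA lay in that of 1 member, Bdnf, against 6.75%. Members with several transcript starts had several windows and so more chances of a match. A match describes letters and not binding. Egr1, Egr3, Arc, Ier2, Nptx2 and Vgf had no entry. Below are 3 early members that were far above the other libraries in dentate granule neurons and 2 late members with the palindrome that differ in the neuron sums (Plk2 high in the control female, Pcsk1 not); capitals mark TGACG or its reverse complement. The windows lie at chr12:85473640-85473889 (Fos, plus strand), chr19:4989972-4990221 (Npas4, minus strand), chr15:101266596-101266845 (Nr4a1, plus strand), chr13:110394794-110395043 (Plk2, plus strand) and chr13:75089607-75089856 (Pcsk1, plus strand). Those of Npas4 and Nr4a1 lie inside the annotated gene spans, and that of Pcsk1 runs past the annotated start of its gene.
Fos: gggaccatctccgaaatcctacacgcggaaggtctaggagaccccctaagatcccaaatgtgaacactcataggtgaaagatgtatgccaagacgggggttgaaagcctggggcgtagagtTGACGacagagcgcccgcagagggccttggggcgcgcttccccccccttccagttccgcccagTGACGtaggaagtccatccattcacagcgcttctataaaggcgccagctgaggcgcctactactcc
Npas4: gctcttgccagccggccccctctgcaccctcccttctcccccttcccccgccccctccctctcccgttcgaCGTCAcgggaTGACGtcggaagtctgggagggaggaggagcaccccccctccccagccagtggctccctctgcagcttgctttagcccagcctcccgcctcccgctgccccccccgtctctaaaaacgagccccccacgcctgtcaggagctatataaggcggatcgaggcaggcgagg
Nr4a1: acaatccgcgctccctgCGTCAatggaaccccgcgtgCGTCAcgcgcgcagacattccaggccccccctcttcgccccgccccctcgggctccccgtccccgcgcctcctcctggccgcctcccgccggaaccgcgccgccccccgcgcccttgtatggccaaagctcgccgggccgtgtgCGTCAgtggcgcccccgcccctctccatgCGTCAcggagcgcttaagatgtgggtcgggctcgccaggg
Plk2: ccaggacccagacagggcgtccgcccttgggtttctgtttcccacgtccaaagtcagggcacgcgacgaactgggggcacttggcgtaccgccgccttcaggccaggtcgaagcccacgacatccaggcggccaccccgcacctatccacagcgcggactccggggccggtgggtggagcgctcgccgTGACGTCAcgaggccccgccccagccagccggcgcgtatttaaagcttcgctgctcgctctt
Pcsk1: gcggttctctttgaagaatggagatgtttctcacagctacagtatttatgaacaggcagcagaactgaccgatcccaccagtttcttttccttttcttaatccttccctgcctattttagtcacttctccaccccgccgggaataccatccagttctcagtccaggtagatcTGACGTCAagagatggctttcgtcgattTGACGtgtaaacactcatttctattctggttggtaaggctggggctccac

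**Figure D2:**
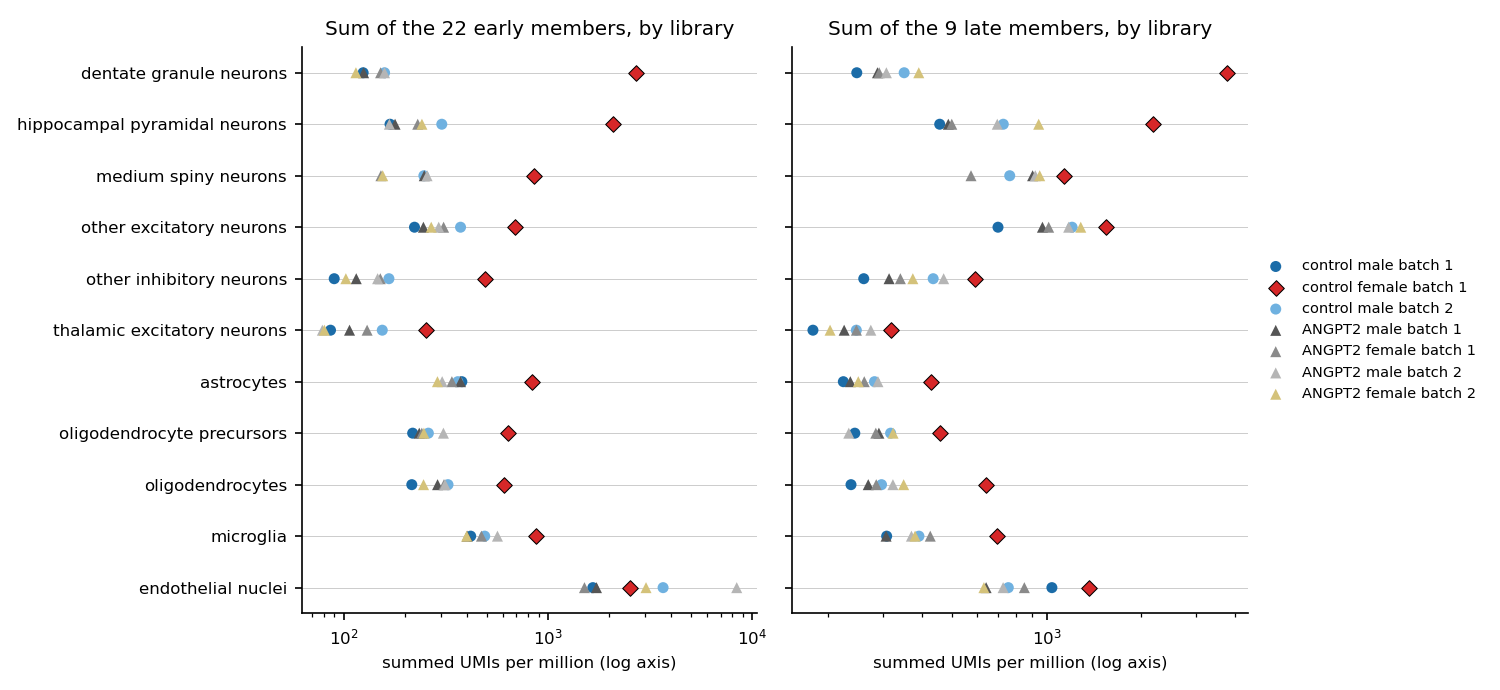
Summed levels (CPM, log axis) of the 22 early members and of the 9 late members in each class, 1 point per library. The control female of batch 1 lies farthest from the other libraries in dentate granule neurons (2707 against 115 to 158 for early members), and in endothelial nuclei the highest early sum is that of the ANGPT2 male of batch 2.

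Hippocampal pyramidal neurons came next. In them 28 of 31 members were highest in the control female of batch 1, against 18.6% of genes, the exceptions being Pcsk1, Inhba and Vgf, and 16 of the 19 members that passed the filter on low counts were. With that library left out 18 members passed. The early members summed to 2085 CPM in the control female, against 167 to 302 in the others, and the late members to 2181, against 456 to 944. Npas4 was at 2.05, 326 and 1.46 in controls and 2.99, 2.88, 0 and 1.29 under ANGPT2 AAV (1738 UMIs against 46 over all other libraries). Nptx2 was at 4.63, 203 and 10.2 in controls and 7.17, 5.77, 5.22 and 4.52 under ANGPT2 AAV, and Ptgs2 at 13.1, 186 and 14.6 in controls and 7.76, 12.01, 3.92 and 12.3 under ANGPT2 AAV. Without the control female the groups overlapped for Npas4 and Nptx2. For Ptgs2 the remaining controls, at 13.1 and 14.6, lay narrowly above the highest ANGPT2 library, at 12.3. How many of all genes were ordered so was not counted. Egr4 was at 2.66, 92.2 and 1.46 in controls and 2.09, 2.40, 2.61 and 4.52 under ANGPT2 AAV.

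Other neuron types followed with smaller differences. Early members summed in the control female to 4.05-fold the mean of the others in medium spiny neurons, 3.83-fold in other inhibitory neurons, 2.41-fold in other excitatory neurons and 2.38-fold in thalamic excitatory neurons. The members highest in it numbered 27 of 31 in other excitatory neurons (21.5% of genes), 25 in other inhibitory (15.8%), 24 in medium spiny (23.2%) and 17 in thalamic excitatory neurons (12.9%). Of the members that passed the filter on low counts, as the genes behind these shares did, they numbered 27 of 31, 20 of 25, 23 of 29 and 16 of 26. The filter counted the control female too, so a member high only there could pass because of it. With that library left out 31, 22, 31 and 24 members passed. In thalamic excitatory neurons Fos was at 2.38, 26.3 and 5.86 in controls and 3.64, 8.0005, 0 and 1.16 under ANGPT2 AAV, while Homer1 was at 87.2, 144 and 121 in controls and 123, 128, 152 and 127 under ANGPT2 AAV and highest in the ANGPT2 male of batch 2, which had 23 such nuclei. Within other excitatory neurons 1 cluster took 512 of its 536 nuclei from the control female.

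The share of nuclei with transcripts was compared after thinning every nucleus to 1000 UMIs, which leaves out shallower nuclei. At least 3 early members were detected in 35.5% of the dentate granule nuclei of the control female of batch 1 (242 of 682, exact 95% interval 31.9% to 39.2%; 99.1% before thinning). In the other 6 libraries no dentate granule nucleus reached that number, with upper limits of the exact interval from 0.907% to 3.93% (0.490% to 20.6% before thinning). In pyramidal nuclei the share was 26.2% (21.5% to 31.4%) against 0 to 1.04%, and in medium spiny nuclei 7.83% against 0.433% to 1.13%. Oligodendrocytes gave 2.03% (1.32% to 2.99%) in the control female and 0.163% to 0.579% in the others. That share is not a floor, since many early members also respond in glia. Median depth was 8782.5 UMIs in those dentate granule nuclei and 2349 in those oligodendrocytes. A Bdnf UMI was seen in 65.7% of thinned dentate granule nuclei of the control female, against 4.95% to 8.89% elsewhere, and in 7.81% of its oligodendrocytes, against 0.568% to 1.25%. Npas4 was seen in 25.6% of its pyramidal nuclei and in 2.69% of its oligodendrocytes. Intervals cover counting error only.

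**Figure D3:**
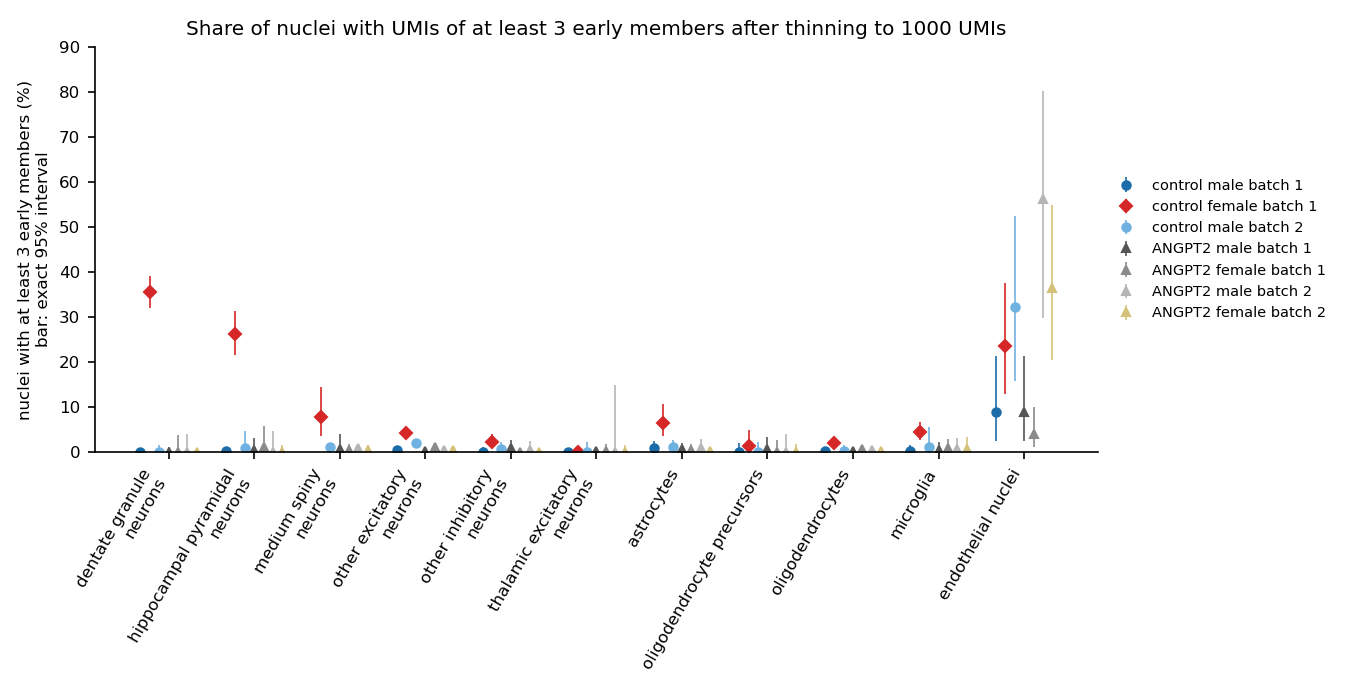
Share of nuclei (%) with UMIs of at least 3 early members after thinning to 1000 UMIs per nucleus, by class and library, with exact 95% intervals as bars. The control female of batch 1 reaches 35.5% in dentate granule and 26.2% in pyramidal nuclei, where the other libraries are at 0 to 1.04%, and endothelial shares are the highest of the classes in batch 2.

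The same library was the highest in glia. Summed over astrocytes, the oligodendrocyte lineage and microglia, 30 of 31 members were highest in the control female of batch 1, against 17.2% of 14790 genes, with Egr2 as the exception. More than 2-fold differences were seen for 17 of 31 members, against 1.68%. Bdnf was at 11.7, 64.2 and 9.20 in controls and 11.3, 10.1, 10.5 and 10.7 under ANGPT2 AAV, a 6.07-fold difference, and Npas4 at 1.62, 28.1 and 2.45 in controls and 2.14, 2.46, 0.955 and 3.77 under ANGPT2 AAV, 12.6-fold. In the other 6 libraries Bdnf lay between 9.20 and 11.7 and Npas4 between 0.955 and 3.77, and for both genes the groups overlapped among them. Fos was at 13.9, 49.1 and 19.3 in controls and 18.3, 14.6, 10.0 and 11.9 under ANGPT2 AAV and Junb at 16.5, 57.6 and 18.7 in controls and 17.5, 20.8, 21.5 and 13.5 under ANGPT2 AAV, with the remaining controls within the ANGPT2 range or near it. By class, 29 of 31 members were highest in it in oligodendrocytes (15.9%), 25 in microglia (12.8%), 23 in astrocytes (18.2%) and 21 in oligodendrocyte precursors (14.6%). These shares are of genes that passed the filter on low counts, and of the members that did so 27 of 28, 10 of 15, 14 of 19 and 7 of 9 were highest in it. The filter counted that library too, so a member high only there could pass because of it. With that library left out 24, 15, 21 and 8 members passed. Neuron marker lists were also summed in glia, but such sums cannot separate RNA of neurons from RNA that glia make. In the control female the 7 dentate granule markers summed to 3208 CPM in oligodendrocytes and 4099 in dentate granule neurons. Over all glia the sums were as follows. The 7 excitatory neuron markers summed to 826 CPM in the control female and 576 to 1043 in the others, 2 of 7 were highest in it and none was at 0. The 7 dentate granule markers summed to 2332 there and 2434 to 2703 in the others, whereas the 9 pyramidal markers summed to 411 there and 306 to 385 in the others, with 2 of 9 highest in it. In microglia the 12 inhibitory neuron markers summed to 865 in it and 603 to 642 in the others. In clusters left unnamed for low UMI counts and no marker among their leading genes, with 72 to 2466 nuclei a library, early members summed to 1702 CPM in the control female and 704 to 1152 in the others. The median log2 difference of the control female from the other libraries was 0.96 there over the 26 members tested and 1.13 over the 31 in glia. The part of free RNA in the glial levels was not tested.

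Lists of related genes, chosen with earlier results of these data known, are described here with no test. Over all genes tested in all neurons 1.56% were more than 2-fold higher in the control female of batch 1. Of 47 other activity-regulated genes tested, 29 were, with a median log2 difference of 1.24. This list held Tll1 and Sorcs3, which were among the leading genes of clusters filled largely by that library. Examples were Tiparp (115 CPM against 17.2 to 37.6 in the others), Errfi1, an inhibitor of the EGF receptor (107 against 11.3 to 18.7), and the kinase Pim1 (5.73 against 0.234 to 0.769). Of 39 upstream genes of calcium and MAP kinase signalling and of CREB, SRF and MEF2, none passed 2-fold over all neurons, and the median was 0.11. Srf was at 10.0 against 4.70 to 7.65, Rps6ka3 at 199.9 against 188 to 309 and Mef2c at 683 against 606 to 951. Among 15 heat shock genes 1 passed, the co-chaperone Bag3 (6.65 against 0.645 to 1.20), and their median was 0.11. Of the most abundant heat shock genes Hspa8 was at 44.3 (39.2 to 125 in the others) and Hsp90ab1 at 120.3 (74.2 to 154), and Hspa4l, at 86.3, lay below the others (90.7 to 100.0). The 13 mitochondrially encoded genes had a median of -0.13 and none passed. In dentate granule neurons 2 of 38 upstream genes passed 2-fold, against 5.58% of all genes. Log2 differences of those 38 ran from -2.18 to 2.13. In pyramidal neurons 2 of 37 passed, against 2.51% of all genes.

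ANGPT2 AAV was then compared with Control AAV, the question of the study's design. With all 7 libraries 29 of 31 members were lower after ANGPT2 over all neurons, with a median log2 change of -1.22 against -0.02 over all genes, yet edgeR called 0 of the 18624 genes after adjustment (0%). At an unadjusted p under 0.05 there were 13 members and 533 genes, and DESeq2 also called 0 genes over all neurons. Over all glia 29 members were lower as well, with a median of -0.59, 6 at an unadjusted p under 0.05 of 584 genes, and 0 of 14790 called (0%). Whole libraries gave 29 lower, a median of -0.93, 11 members and 541 genes at an unadjusted p under 0.05, and 0 of 19966 genes called by edgeR (0%) against 1 by DESeq2.

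These counts changed when the control female of batch 1 was left out. Without it 16 members were higher and 15 lower over all neurons, with a median of 0.08 and no member at an unadjusted p under 0.05. Over all glia 21 were higher and 10 lower (median 0.07, 1 member at an unadjusted p under 0.05), and in whole libraries 22 and 9 (median 0.09). No member was called in any class without it, and edgeR called genes only in choroid plexus nuclei (1 gene, 0.0359%), ependymal nuclei (1, 0.0405%) and oligodendrocyte precursors (2, 0.0246%). Within batch 1 the median log2 difference over neurons was -0.90, and 0.28 against the control male alone. Within batch 2, which lacks that library and has 1 control, it was -0.10, with 20 members lower and 11 higher.

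The 6 members with the smallest p over all neurons gave the following values. The log2 difference of Ptgs2 was -3.03 (SE 0.93) and -0.35 without the control female. For Npas4 it was -3.21 (SE 1.01) and -0.14 without it. Values with and without it were -2.53 and -0.06 for Gadd45g, -1.49 and -0.59 for Fosl2, -2.62 and 0.27 for Nptx2, and -2.07 and 0.15 for Bdnf. The edgeR adjusted p was 0.999 for all 6 with the library. Without the library Fosl2 had the most negative value of the 6, with levels of 5.07, 31.6 and 13.1 in controls and 4.91, 8.15, 4.40 and 6.11 under ANGPT2 AAV, where the control male of batch 2 was the second highest. In glia Scg2, which makes the peptide secretoneurin, stood at a log2 difference of -0.59 (SE 0.20) and at -0.32 without the control female. The other 5 in glia were Ptgs2 at -2.20 and -0.10, Bdnf at -1.43 and 0.000997, Npas4 at -2.17 and 0.32, Fos at -0.95 and -0.19, and Nptx2 at -1.63 and 0.21. Their edgeR adjusted p was 0.987.

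**Figure D4:**
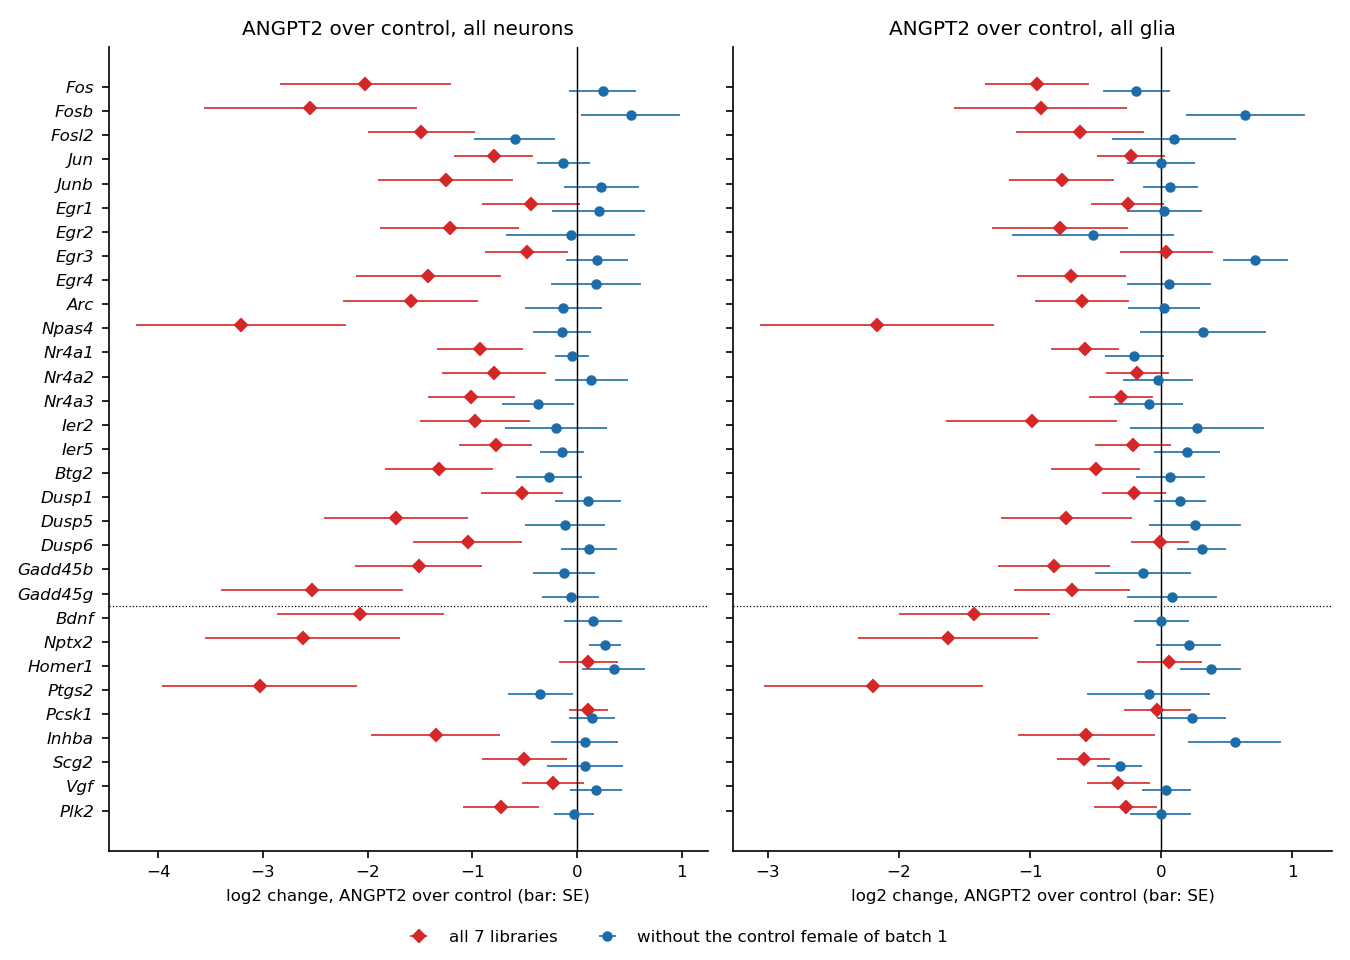
Log2 change of each member after ANGPT2 over control, with SE as bars, over all neurons and over all glia, with all 7 libraries and without the control female of batch 1. With all libraries 29 of 31 members lie below 0 in both panels, and without that control female 15 do in neurons and 10 in glia.

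By neuron type edgeR called 0 genes (0% in each of the 6), with 199 genes in thalamic to 963 in other excitatory neurons at an unadjusted p under 0.05, and DESeq2 called 1 in medium spiny, 2 in other excitatory and 0 in the other 4. In dentate granule neurons the 2 members with the smallest p were Nr4a1, at a log2 difference of -4.78 (SE 1.42), and Arc, at -4.29 (SE 1.30), both with an edgeR adjusted p of 0.867. Without the control female these were -0.17 and -0.15. In pyramidal neurons Ptgs2 stood at -3.02 (SE 0.82) and Nptx2 at -3.71 (SE 1.06), and at -0.51 and 0.08 without it, with an edgeR adjusted p of 1.00 with it. In other excitatory neurons these were Npas4 (-2.49, then -0.10) and Ptgs2 (-2.56, then -0.09). Thalamic excitatory neurons gave Npas4 (-2.04, then -0.30) and Junb (-1.22, then -0.20). Other inhibitory neurons gave Gadd45g (-1.74, then -0.57) and Plk2 (-0.87, then -0.29).

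Medium spiny neurons, for which the control male of batch 1 with 6 nuclei was left out, had Fosl2 at -1.70 (SE 0.34) and Nr4a1 at -1.90 (SE 0.42), with an adjusted p of 1.00 for both. Fosl2 stood in them at 29.2 and 15.6 in controls and 8.57, 6.64, 4.70 and 7.56 under ANGPT2 AAV, so both controls lay above all ANGPT2 libraries, and without the control female the difference was -1.26. Nr4a1 stood at 150.1 and 38.0 in controls and 25.7, 18.2, 29.99 and 20.3 under ANGPT2 AAV, and was -0.66 without it. In this type 5 of 31 members had both controls above all ANGPT2 libraries. How many of all genes were ordered so was not counted. With the control male of batch 2 left out, the single remaining control was the high library, and Nr4a1 was at -2.66. That fit assumes that the lone sample varies like the other group, so its calls are not given.

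In the glial classes edgeR called 0 genes as well (0%), with 289 to 419 at an unadjusted p under 0.05 in the 4 larger ones, and DESeq2 called 0. The pairs with the smallest p were Scg2 (-0.74, then -0.64) and Nr4a1 (-0.84, then -0.56) in astrocytes, Bdnf (-1.87, then -0.30) and Nptx2 (-1.84, then 0.43) in oligodendrocytes, and Scg2 (-0.57, then -0.25) and Egr1 (-0.77, then 0.23) in oligodendrocyte precursors. In microglia Jun, the AP-1 subunit, stood at -1.01 (SE 0.30), with an edgeR adjusted p of 0.862, and at -1.10 without the control female. Its levels there were 49.1, 36.0 and 32.8 in controls and 18.9, 17.4, 31.9 and 17.4 under ANGPT2 AAV, so all 3 controls lay above all ANGPT2 libraries, by a narrow margin for the control male of batch 2 against the ANGPT2 male of batch 2. Microglia held 437170 UMIs of all genes in that control male and 266555 in that ANGPT2 male, so both levels rest on few Jun UMIs. How many of all genes separated the groups in this way was not counted. The value for Jun in microglia was as large without the control female and failed the adjustment over all genes.

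Summed levels of each member were compared between neurons and glia inside the same libraries, with the library as a block. Such sums may hold free RNA of other cells, and its part was not tested. Of 31 members 14 were higher in neurons, against 38.5% of 18045 genes, and 9 were lower, against 41%. The members higher in neurons included 7 of the 9 late ones, Pcsk1 (log2 difference 2.62, SE 0.14), Homer1 (2.52, SE 0.06), Bdnf (1.84, SE 0.15), Ptgs2 (1.62, SE 0.15) and further down Plk2, Inhba and Nptx2. Of early members Nr4a3 (1.94, SE 0.17), Npas4 (1.64, SE 0.19), Nr4a1 (1.41, SE 0.12) and Dusp5 (1.37, SE 0.19) were higher in neurons, with edgeR adjusted p from 3.2e-05 down to 6.4e-12 over these 8 members. Lower in neurons were Jun (-1.57, SE 0.13), Gadd45g (-1.17, SE 0.32), Dusp6 (-1.17, SE 0.22), Dusp1 (-0.77, SE 0.14), Fos (-0.76, SE 0.26), Ier2 (-0.74, SE 0.25), Btg2 (-0.65, SE 0.15) and Egr1 (-0.51, SE 0.12), with adjusted p from 2.2e-07 to 0.020. Without the control female of batch 1 the counts were 14 and 11 (38% and 40.7% of genes), and Ier2 lost its call (-0.65, edgeR adjusted p = 0.064), as it did without the ANGPT2 male of batch 1. Fos lost its call with any 1 of 4 libraries left out, namely either control male, the batch 1 ANGPT2 male or the batch 2 ANGPT2 female (edgeR adjusted p from 0.051 to 0.068). The share of members higher in neurons was near that of all genes, and the share lower was below it.

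**Figure D5:**
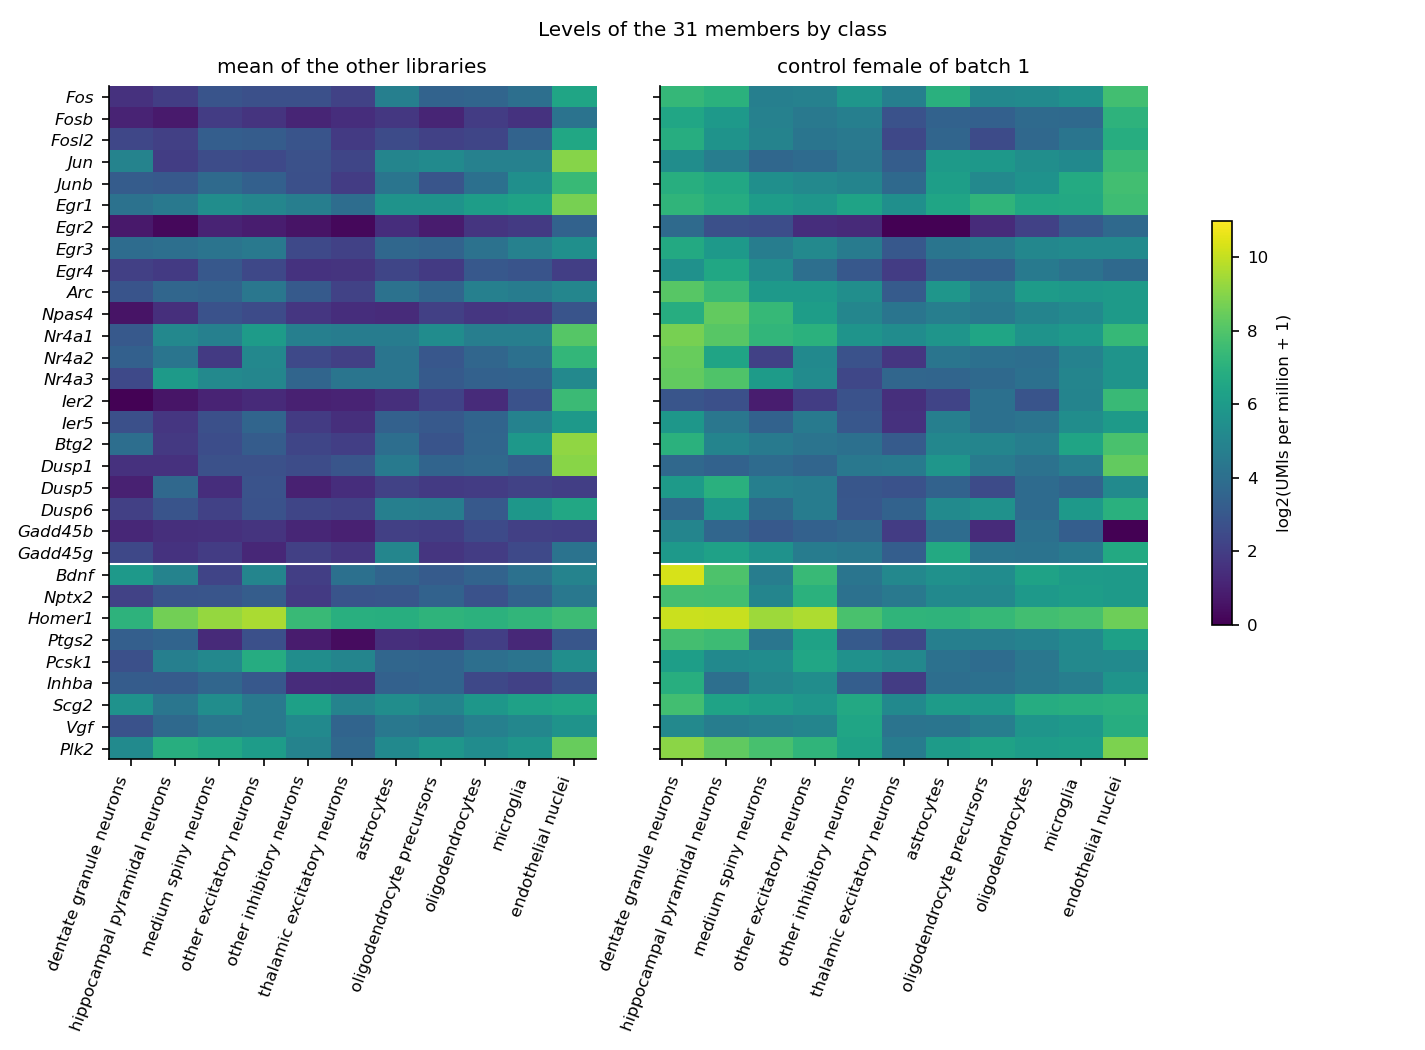
Mean level of each member in each class (log2 of CPM + 1). The left panel is the mean of the other libraries, in which Gadd45g is highest in astrocytes, and the right panel is the control female of batch 1, in which Bdnf is highest in dentate granule neurons.

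Each neuron type was compared with the other neurons. With all libraries, the share of members higher was near that of all genes in dentate granule, pyramidal and medium spiny neurons. The share lower was near or below that of all genes in dentate granule and pyramidal neurons. Dentate granule neurons against the other neurons had 7 members higher (17.9% of genes) and 6 lower (24.1%), with Jun (2.39, SE 0.18) and Bdnf (1.69, SE 0.26) the highest and Pcsk1 (-2.71, SE 0.48) and Nr4a1 (-1.96, SE 0.63) the lowest. Without the control female 17 members were lower (27.6%) and 7 higher (20%), and the call of Nr4a1 was lost without any 1 of the other 6 libraries (edgeR adjusted p from 0.053 to 0.084). Pyramidal neurons had 6 higher (16.9%; 13 when clustered at resolution 2) and 4 lower (22%), led by Dusp5 (1.95, SE 0.18) and Nr4a3 (1.64, SE 0.12), and by Pcsk1 (-1.25, SE 0.12) and Dusp1 (-1.17, SE 0.26), and 4 and 9 without the control female (15.9% and 20.2%). Other excitatory neurons had 9 higher (19.8%) and 3 lower (19.4%), with Pcsk1 (1.94, SE 0.14), Nr4a2 (1.84, SE 0.52), Gadd45g (-0.95, SE 0.11) and Scg2 (-0.90, SE 0.09), and 20 higher and 3 lower without it (18.9% and 18.4%), while the call of Nr4a2 was lost without either batch 1 ANGPT2 library or the batch 2 ANGPT2 female (edgeR adjusted p from 0.050 to 0.055).

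Thalamic excitatory neurons stood low, with 24 of 31 members lower than in the other neurons (26.8% of genes) and 1 higher (23.8%). Ptgs2 (-4.21, SE 0.20) and Nr4a2 (-3.46, SE 0.25) were the lowest and Dusp1 (0.71, SE 0.15) the one higher, and 22 were lower and 1 higher without the control female (30.3% and 19.5%). Other inhibitory neurons had 23 lower (25.8%) and 2 higher (23.7%), the neuropeptide precursors Scg2 (1.08, SE 0.13) and Vgf (0.92, SE 0.13), with Ptgs2 (-3.70, SE 0.32) and Bdnf (-3.62, SE 0.17) the lowest. With each library left out in turn, the control female included, 20 to 23 were lower and 2 higher. Medium spiny neurons, in 6 libraries, had 6 higher (22.6%) and 10 lower (24.2%), with Egr4 (0.89, SE 0.17), Inhba (0.76, SE 0.23), Nr4a2 (-3.05, SE 0.26) and Bdnf (-2.83, SE 0.26). With each of these libraries left out in turn, 5 were higher and 8 to 11 lower. For these 2 types the shares of all genes with a library left out are not given. The call of Inhba was lost without the ANGPT2 female of batch 1 (edgeR adjusted p = 0.075). With all libraries edgeR adjusted p for the members named for the 6 neuron types ranged from 4.5e-09 to 0.026.

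Among glia, astrocytes had 8 of 29 tested members higher (27.9% of genes) and 4 lower (31.3%). Gadd45g was the highest (3.26, SE 0.19), with levels in astrocytes of 51.5, 103 and 11.7 in controls and 29.8, 43.4, 23.3 and 30.5 under ANGPT2 AAV, followed by Fos (1.49, SE 0.17), and the lowest were Egr4 (-0.76, SE 0.31) and Egr3 (-0.48, SE 0.15). Microglia had 8 of 31 higher (32.8%) and 3 lower (29.6%), with Btg2 (1.90, SE 0.16), Ier2 (1.56, SE 0.36), Gadd45g (-1.26, SE 0.23) and Dusp1 (-0.83, SE 0.24). Oligodendrocytes had 9 higher (31.4%) and 6 lower (34.4%), with Egr4 (1.07, SE 0.20), Gadd45b (0.97, SE 0.22), Gadd45g (-1.97, SE 0.24) and Dusp6 (-1.82, SE 0.18). Oligodendrocyte precursors had 6 of 29 higher (23.2%) and 7 lower (28.5%), with Nr4a1 (0.95, SE 0.14), Inhba (0.89, SE 0.29), Gadd45g (-1.23, SE 0.30) and Junb (-1.10, SE 0.26). Committed oligodendrocyte precursors, with 10 to 26 nuclei a library, had 0 of 26 higher (9.97%) and 12 lower (22.3%), led by Dusp1 (-3.46, SE 0.96) and Ier5 (-3.34, SE 0.98). With all libraries edgeR adjusted p for the members named for these classes ranged from 2.0e-12 to 0.042. The call of Egr4 in astrocytes was lost without the control female, either batch 1 ANGPT2 library or the batch 2 ANGPT2 female (0.075 to 0.12), and with doublets kept (0.063), and that of Inhba in oligodendrocyte precursors without the ANGPT2 female of batch 1 (0.080). With all libraries, shares of members called were near or below the background in most of these glial contrasts. Each library, the control female included, was also left out in turn. Members higher then numbered 6 to 7 in astrocytes, 6 to 8 in microglia, 7 to 9 in oligodendrocytes and 5 to 6 in precursors. Members lower numbered 2 to 4, 2 to 5, 5 to 6 and 5 to 9. In committed precursors 0 were higher and 7 to 13 lower. Shares of all genes in those fits are not given.

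In endothelial nuclei the early members were highest in another library. They summed to 2534 CPM in the control female of batch 1 and to 8401 in the ANGPT2 male of batch 2, with 1509 to 3661 in the other 5 libraries. The late members were highest in the control female here too, at 1362 CPM against 631 to 1040.1 in the others. The ANGPT2 male of batch 2 had 39 endothelial nuclei and held the highest level of 8 of the 10 members tested, against 22.2% of 2881 genes. The filter on low counts included that library. Egr1 was at 151, 189 and 239 in controls and 222, 139, 1569.7 and 219 under ANGPT2 AAV and Nr4a1 at 45.2, 164 and 327 in controls and 39.3, 108, 1017 and 126 under ANGPT2 AAV. The ANGPT2 male of batch 2 was above every other library for both genes, and the remaining ANGPT2 libraries overlapped the controls. After thinning, at least 3 early members were found in 9 of its 16 nuclei deep enough (56.2%, exact 95% interval 29.9% to 80.2%), in 23.5% in the control female of batch 1 and in 4.00% to 8.89% of nuclei in the other 3 libraries of batch 1. In the other 2 libraries of batch 2 it was 32.1% and 36.4%, and 23 to 56 shallower nuclei were left out in each library of that batch. Endothelial markers (8 genes) summed to 17475 CPM in the ANGPT2 male of batch 2, the highest of the 7, and mural markers to 1114.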

How the data were processed

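Nuclei were isolated by the submitters and sequenced on the 10x Chromium platform. The deposited files are gene by barcode tables of unnormalized UMI counts, made by the authors with Cell Ranger 6.1.2 on mm10 (GRCm38), per the submitters' processing notes. Whether intronic reads were counted is not given in the sources used here. The 31 members and the other gene lists were chosen with earlier results of these data known.

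Of 58286 barcodes 117 were left out (under 300 genes or over 5% mitochondrial UMIs). Of the 58169 that passed, 3939 that resembled simulated doublets were removed, which left 54230 nuclei. Clustering in Python 3.11.15 (igraph 0.11.9, scikit-learn 1.9.0) used 2500 variable genes without the members, 40 components, 15 neighbours and Leiden resolution 1. It gave 66 clusters named from marker genes, and 10134 nuclei lay in clusters that stayed unnamed.

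Pseudobulk sums of each class in each library were tested with edgeR 4.0.16 in R 4.3.3 (quasi-likelihood, TMM factors, filterByExpr with a minimum count of 10 and a total of 15, Benjamini-Hochberg threshold 0.05 over all genes tested). Contrasts between classes had the library as a block. Classes with under 10 nuclei in a library were left out of that library's sums. The medians and 2-fold counts used a pseudocount of 1. Alternatives were DESeq2 1.42.0, RLE factors, no filter, batch or sex as a term, each library left out, doublets kept, resolution 2 and thinning to 500 UMIs. On simulated data edgeR recovered 51% of 2-fold and 90.6% of 4-fold changes for the ANGPT2 comparison over all neurons (18300 genes). The simulated counts held no library set apart from its group. This recovery therefore does not cover members for which the control female of batch 1 stood high. Over 18593 genes the difference between batches in control and in ANGPT2 libraries had a correlation of 0.49 over all neurons. Batches also differed in depth and in medium spiny nuclei (6 to 394 a library in batch 1, 523 to 1729 in batch 2). What the correlation reflects was not tested.

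Levels in every library could be given for all members. Log2 differences were printed for the 6 members with the smallest p over all neurons and over all glia and 2 in each class, and, between classes, for up to 8 members (2 for single types) with the largest difference past the threshold in each direction. From other lists the 3 genes with the smallest p were named, and the 3 most abundant heat shock genes.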

Additional observations from a re-analysis of the deposited data

Results flagged for a closer look

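In 72 groups of 4 ANGPT2 libraries tested over all neurons, all glia and endothelial nuclei, 5 had 1 library far from the other 3, and chance marks about 1 in 20. Over all neurons Egr4 was at 7.33 CPM in the ANGPT2 male of batch 2, against 3.00 to 3.25 in the other 3. Over all neurons Nr4a1 was at 53.3 in the ANGPT2 female of batch 1, against 40.5 to 42.5. The other 3 were endothelial values of the ANGPT2 male of batch 2, which had 39 such nuclei: Junb at 581 (57.0 to 75.7 in the other 3), Egr1 at 1570 (139 to 222) and Nr4a1 at 1017 (39.3 to 126). The control group, with 3 libraries, was too small for this comparison.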

How the results depend on the processing

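Several ANGPT2 values turned sign when 1 library was left out, and the cause was not tested. Without the control female of batch 1 the sign turned for Nptx2 (0.27) and Bdnf (0.15) over all neurons, for Bdnf (0.000997), Npas4 (0.32) and Nptx2 (0.21) over all glia, for Homer1 in choroid plexus nuclei (0.26), Egr1 in oligodendrocyte precursors (0.23), and Nptx2 in oligodendrocytes (0.43) and pyramidal neurons (0.080). With no filter on low counts and that library left out, a setting chosen after seeing the data, the values were 0.26 and 0.15 for Nptx2 and Bdnf over all neurons, 0.31 for Npas4 and 0.21 for Nptx2 over all glia, 0.31 for Homer1 in choroid plexus, 1.01 for Egr1 and 0.50 for Homer1 in ependymal nuclei, 0.25 for Egr1 in oligodendrocyte precursors, and 0.42 and 0.061 for Nptx2 in oligodendrocytes and pyramidal neurons. Homer1 was at 0.01 in choroid plexus without the control male of batch 2, and at -0.28 and -0.08 in committed precursors when the batch 1 control male or the batch 2 ANGPT2 male was left out. Egr1 in endothelial nuclei was at -0.013 without the ANGPT2 male of batch 2. The opposite extremes with 1 library left out were -3.14 for Nptx2 and -2.55 for Bdnf over all neurons, -1.83 for Bdnf, -2.74 for Npas4 and -2.13 for Nptx2 over all glia, -0.66 and 0.71 for Homer1 in choroid plexus and committed precursors, 1.57 and -1.35 for Egr1 in endothelial nuclei and oligodendrocyte precursors, and -2.42 and -4.32 for Nptx2 in oligodendrocytes and pyramidal neurons.
Genes called after ANGPT2, 0 in the fits as reported, ranged with 1 library left out from 0 to 3 in choroid plexus, 0 to 1 in ependymal nuclei, 0 to 12 in microglia, 0 to 2 in oligodendrocyte precursors and 0 to 6 in unnamed nuclei. Members called ranged from 0 to 3 in unnamed nuclei (without the control male of batch 1). In medium spiny neurons the fit without the control male of batch 2 kept 1 control, and its calls are not given. DESeq2 called 1 gene in whole libraries, 1 in medium spiny and 2 in other excitatory neurons. With sex as a term 3 genes were called in microglia, 4 in oligodendrocyte precursors and 2 in pyramidal neurons, 1 of them a member. With the replicate block (batch as a term) 1 gene was called in unnamed nuclei and 9 in committed precursors, and no call of a member changed. With no filter the genes (and members) called were 35 (4) in unnamed nuclei, 48 (1) in astrocytes, 2 (1) in choroid plexus, 11 in committed precursors, 7 in endothelial nuclei, 1 in ependymal nuclei, 9 in fibroblasts, 35 (8) in medium spiny neurons, 72 (2) in microglia, 21 in oligodendrocyte precursors, 32 (4) in oligodendrocytes, 88 (12) in other inhibitory, 176 (22) in pyramidal and 4 in thalamic excitatory neurons. With no filter and the control female left out no member was called, and genes called were 17 in unnamed nuclei, 7 in all glia, 17 in astrocytes, 4 in choroid plexus, 6 in committed precursors, 7 in endothelial nuclei, 4 in ependymal nuclei, 3 in fibroblasts, 10 in medium spiny neurons, 31 in microglia, 11 in oligodendrocyte precursors, 23 in oligodendrocytes, 42 in other inhibitory, 17 in dentate granule, 51 in pyramidal, 4 in other excitatory and 33 in thalamic excitatory neurons.
Between classes, with no replicate block (the library left out as a term), members higher and lower numbered 9 and 3 in neurons over glia, 4 and 1 in dentate granule, 3 and 1 in pyramidal, 2 and 1 in other excitatory, 0 and 3 in medium spiny neurons, 5 and 3 in oligodendrocytes and 4 and 1 in microglia. In that fit 0 were higher in thalamic excitatory neurons, 13 lower in other inhibitory neurons, 0 lower in astrocytes, 4 in committed and 1 in other oligodendrocyte precursors, and Nr4a1 in dentate granule neurons was at 0.41. With 1 library left out, members higher in other excitatory neurons ranged from 7 to 20, and members lower from 5 to 17 in dentate granule and 4 to 9 in pyramidal neurons, 2 to 4 in astrocytes (these 4 extremes without the control female), 7 to 13 in committed precursors (7 without the ANGPT2 female of batch 1) and 2 to 5 in microglia (5 without the ANGPT2 female of batch 2). Clustering at resolution 2 gave 13 members higher in pyramidal neurons, doublets kept lost the call of Egr4 in astrocytes (adjusted p = 0.063), RLE factors 5 lower in microglia, and no filter 5 higher and 7 lower in microglia. Fos lost its call for neurons over glia without 4 of the libraries in turn (adjusted p from 0.051 to 0.068). At 500 UMIs per nucleus the shares in the control female were 42.8% for Bdnf and 10.9% for at least 3 early members in dentate granule nuclei, and 0.160% for the latter in oligodendrocytes. Shallow nuclei limited the shares in batch 2, where 142 to 1354 oligodendrocytes per library were left out.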
